A study of Homo sapiens with 15 samples.

Results

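The levels of 37 genes of the DNA damage response were compared in 2 human cell lines: the damage kinases and their mediators, the genes of homologous recombination and the Fanconi anaemia pathway, and genes of end joining and mismatch repair. The members were taken by symbol from a fixed list of 37 names, and all 37 stood in the HEK293T table of 62703 genes and in the HuCCT1 table of 35595 genes. HEK293T is a line from human embryonic kidney that carries the large T antigen of a tumour virus, a protein that binds p53 and RB, and HuCCT1 is a line from a bile duct carcinoma. Of 15 RNA-seq libraries, 9 came from HEK293T cells (genotypes SNRPD2KO, PUS7KO and Ctrl) and 6 from HuCCT1 cells (SNRPD2KO and Ctrl), with 3 for each genotype and line. KO stands for a CRISPR-Cas9 knockout, and the labels give no further allele, guide, clone or time. The product of SNRPD2, SMD2, belongs to the ring of Sm proteins around spliceosomal RNAs, and PUS7 encodes an enzyme that makes pseudouridine in RNA. The labels do not say that replicates came from separate cultures, so p-values measure only the spread between these libraries.

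Cells sense broken DNA through the kinases ATM, ATR and DNA-PKcs. ATM is called to breaks by the MRN complex, ATR to stretches of exposed strand at stalled forks, and DNA-PKcs to ends held by Ku. Broken ends are either joined directly by XRCC4 and LIG4 or cut back and repaired from the sister copy, a route that needs BRCA1 and BARD1, PALB2 and BRCA2. The Fanconi core complex attaches ubiquitin to FANCD2 and FANCI when a fork meets a crosslink, and the cut crosslink is then handed to recombination. Many of these genes are more active in S phase, when the sister copy exists.

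SNRPD2 RNA went against its label. It stood at 279 ± 31.7 CPM (counts per library total scaled by TMM factors; ± SD, n = 3) in HEK293T SNRPD2KO against 181 ± 13.5 in Ctrl, and at 287 ± 29.3 in HuCCT1 SNRPD2KO against 154 ± 7.28 in Ctrl. SNRPD2 RNA was also higher in HEK293T PUS7KO than in Ctrl, at 260 ± 22.5 CPM (log2 fold change 0.52, SE 0.10, edgeR adjusted p = 0.000338). The difference between the 2 HEK293T knockout groups did not pass that test (0.11, adjusted p = 0.563). Every direction below is therefore that of the libraries as labelled. PUS7 was lower in the libraries labelled PUS7KO, at 16 ± 2.24 CPM against 26.4 ± 0.509 in HEK293T Ctrl. Library totals ran from 7944276 to 11270267 counts in HEK293T and from 13776166 to 16795618 in HuCCT1. Protein-coding genes took 61.7% to 68.8% of the counts in HEK293T and 93.6% to 95.3% in HuCCT1. All 8 epithelial markers were higher in every HuCCT1 library than in any HEK293T library, 6 of 8 HEK293T markers were higher in every HEK293T library, CDH2 went the other way (65.8 to 94.3 CPM in HEK293T, 167 to 203 in HuCCT1), CRMP1 overlapped, and 3 of 5 markers of other cell types (PTPRC, COL3A1 and ALB) stayed under 1 CPM everywhere. The summed level of those 5 was 16.4 to 16.7 CPM in HuCCT1 SNRPD2KO against 8.81 to 10.1 in Ctrl, and its part in the results was not tested. In HuCCT1 that sum was mostly COL1A1, at 8.28 to 16.4 CPM across the libraries. PTPRC, COL3A1, PECAM1 and ALB each stayed under 0.43 CPM there. The 37 members together held 0.431% to 0.455% of all counts in HEK293T Ctrl, 0.436% to 0.502% in SNRPD2KO and 0.453% to 0.516% in PUS7KO. In HuCCT1 they held 0.227% to 0.238% in Ctrl and 0.286% to 0.306% in SNRPD2KO, so the ranges did not overlap there. Such sums follow the most abundant members. PRKDC alone had 15481 counts over the 3 HuCCT1 Ctrl libraries and 35571 over the 3 of SNRPD2KO. In bulk libraries, fewer cells that express a gene and less RNA per cell cannot be told apart.

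RefSeq promoter sequences (build GRCh38.p14) were found for 32 of the 37 members, 48 promoters in all. The 250 bases before the RefSeq start are printed for 5 members on which the results turn: FANCM and BRCA2, the largest falls in HEK293T SNRPD2KO, XRCC3 and FANCE, the largest rises there, and ATM, whose change differed most clearly between the lines by adjusted p. Capitals mark matches on either strand to CCAAT (the letters bound by NF-Y), to CCGGAAG (an ETS core) and to TTTGAA (a cell cycle element, CHR). In ATM the CCGGAAG and TTTGAA matches lie side by side. By the coordinates used for the tables' genes (hg38), FANCM spans positions 45135930 to 45200890 of chromosome 14, BRCA2 32315086 to 32400268 of chromosome 13 and ATM 108223044 to 108369102 of chromosome 11. Starts differ between RefSeq and those coordinates: the BRCA2 window lies wholly inside the gene span, the ATM window reaches into it with its TTTGAA and CCGGAAG matches, and the XRCC3 window reaches into that gene with its last CCAAT match.
FANCM (chr14:45135680-45135929, plus strand): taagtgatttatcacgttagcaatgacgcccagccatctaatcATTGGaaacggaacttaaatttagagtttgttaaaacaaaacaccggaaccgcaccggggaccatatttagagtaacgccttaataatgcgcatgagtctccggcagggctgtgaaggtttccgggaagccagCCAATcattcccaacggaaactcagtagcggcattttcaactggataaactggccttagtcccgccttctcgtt
BRCA2 (chr13:32315258-32315507, plus strand): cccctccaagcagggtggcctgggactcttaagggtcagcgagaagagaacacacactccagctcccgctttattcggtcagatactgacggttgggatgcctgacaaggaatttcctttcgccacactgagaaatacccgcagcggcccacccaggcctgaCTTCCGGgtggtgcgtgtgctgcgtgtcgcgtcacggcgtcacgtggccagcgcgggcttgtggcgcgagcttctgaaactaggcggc
ATM (chr11:108222817-108223066, plus strand): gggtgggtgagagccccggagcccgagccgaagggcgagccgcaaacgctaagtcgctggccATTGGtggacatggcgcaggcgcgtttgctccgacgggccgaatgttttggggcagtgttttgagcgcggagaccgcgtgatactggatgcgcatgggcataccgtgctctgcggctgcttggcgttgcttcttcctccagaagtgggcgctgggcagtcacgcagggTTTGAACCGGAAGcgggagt
XRCC3 (chr14:103715452-103715701, minus strand): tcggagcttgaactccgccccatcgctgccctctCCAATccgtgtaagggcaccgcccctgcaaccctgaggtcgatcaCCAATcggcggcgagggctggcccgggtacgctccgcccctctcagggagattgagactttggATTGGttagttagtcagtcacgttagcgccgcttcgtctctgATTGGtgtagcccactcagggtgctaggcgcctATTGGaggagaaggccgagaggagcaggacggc
FANCE (chr6:35452088-35452337, plus strand): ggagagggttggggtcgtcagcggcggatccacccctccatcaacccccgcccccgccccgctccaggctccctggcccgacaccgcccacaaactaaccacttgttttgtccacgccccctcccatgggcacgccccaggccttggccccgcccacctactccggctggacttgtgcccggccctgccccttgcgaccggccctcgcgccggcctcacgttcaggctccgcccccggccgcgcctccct

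XRCC3 carried 5 CCAAT matches in this window, FANCM 2, ATM 1 and BRCA2 and FANCE none. GC content of the window was 46.4% for FANCM, 61.6% for BRCA2, 64.4% for ATM, 62% for XRCC3 and 73.6% for FANCE. Over the 48 member promoters, CCAAT was found in 24 (50.0%), against 32% of all 35116 promoters in the table. The ETS letters CCGGAAG were found in 14 (29.2%) against 8.52%, in promoters of 12 members: ATM, ATR, BLM, BRCA2, FANCD2, LIG4, MRE11, PALB2, RAD50, RAD51D, TP53BP1 and XRCC4. TTTGAA was found in 4 (8.33%) against 13.3%. The E2F letters TTTGGCGC, TTTCCCGC, TTTGCCGC or TTTCGCGC were found in 4 (8.33%), of FANCA, FANCC and PMS2, against 2.79%. The NRF1 motif was found in none, against 1.03%. Alternative starts of a gene overlap, and a match describes these letters only.

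In HEK293T, 36 members passed the filter on low counts and MDC1 did not. Of the 36, 13 were higher and 9 lower in SNRPD2KO than in Ctrl at an adjusted p under 0.05 (edgeR quasi-likelihood test, Benjamini-Hochberg over all 15882 genes tested). Over all genes tested, 26.9% were higher and 26.4% lower, 53.3% in all, against 22 of 36 members. The members' median log2 fold change was 0.07, beside 0.02 for all genes tested. In PUS7KO, 15 members were higher and 6 lower, where 25.6% of all genes were higher and 23.8% lower (49.4% in all), and the members' median was 0.19 beside 0.01. Both comparisons use the same 3 Ctrl libraries. In HuCCT1, all 37 members were tested, and 23 were higher and 4 lower in SNRPD2KO, where 28.8% of 15007 genes were higher and 28.4% lower (57.2% in all). Their median there was 0.41, beside 0.00 for all genes tested. The groups did not overlap for 25 of 36 members in each HEK293T comparison with Ctrl, where they did not for 59.5% and 57.2% of all genes in SNRPD2KO and PUS7KO. In HuCCT1 they did not overlap for 27 of 37 members, where they did not for 63.5% of all genes. With a trend on the GC content of the transcript removed from each library, the split in HEK293T SNRPD2KO moved to 19 higher and 3 lower (25.2% and 25.9% of all genes, 51.1% in all), and that in PUS7KO to 20 and 6 (24.6% and 26.0%, 50.6% in all). Against a 1.5-fold change, 5 of 36 members were called in HEK293T SNRPD2KO, 4 in PUS7KO, 0 between those groups, 8 of 37 in HuCCT1 and 10 in the difference between lines, where 18.8%, 14.1%, 0.0126%, 18.7% and 16.8% of all genes were. After removing the GC trend, the HuCCT1 split was 22 higher and 3 lower (27.7% and 29.8%, 57.5% in all).

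**Figure D1:**
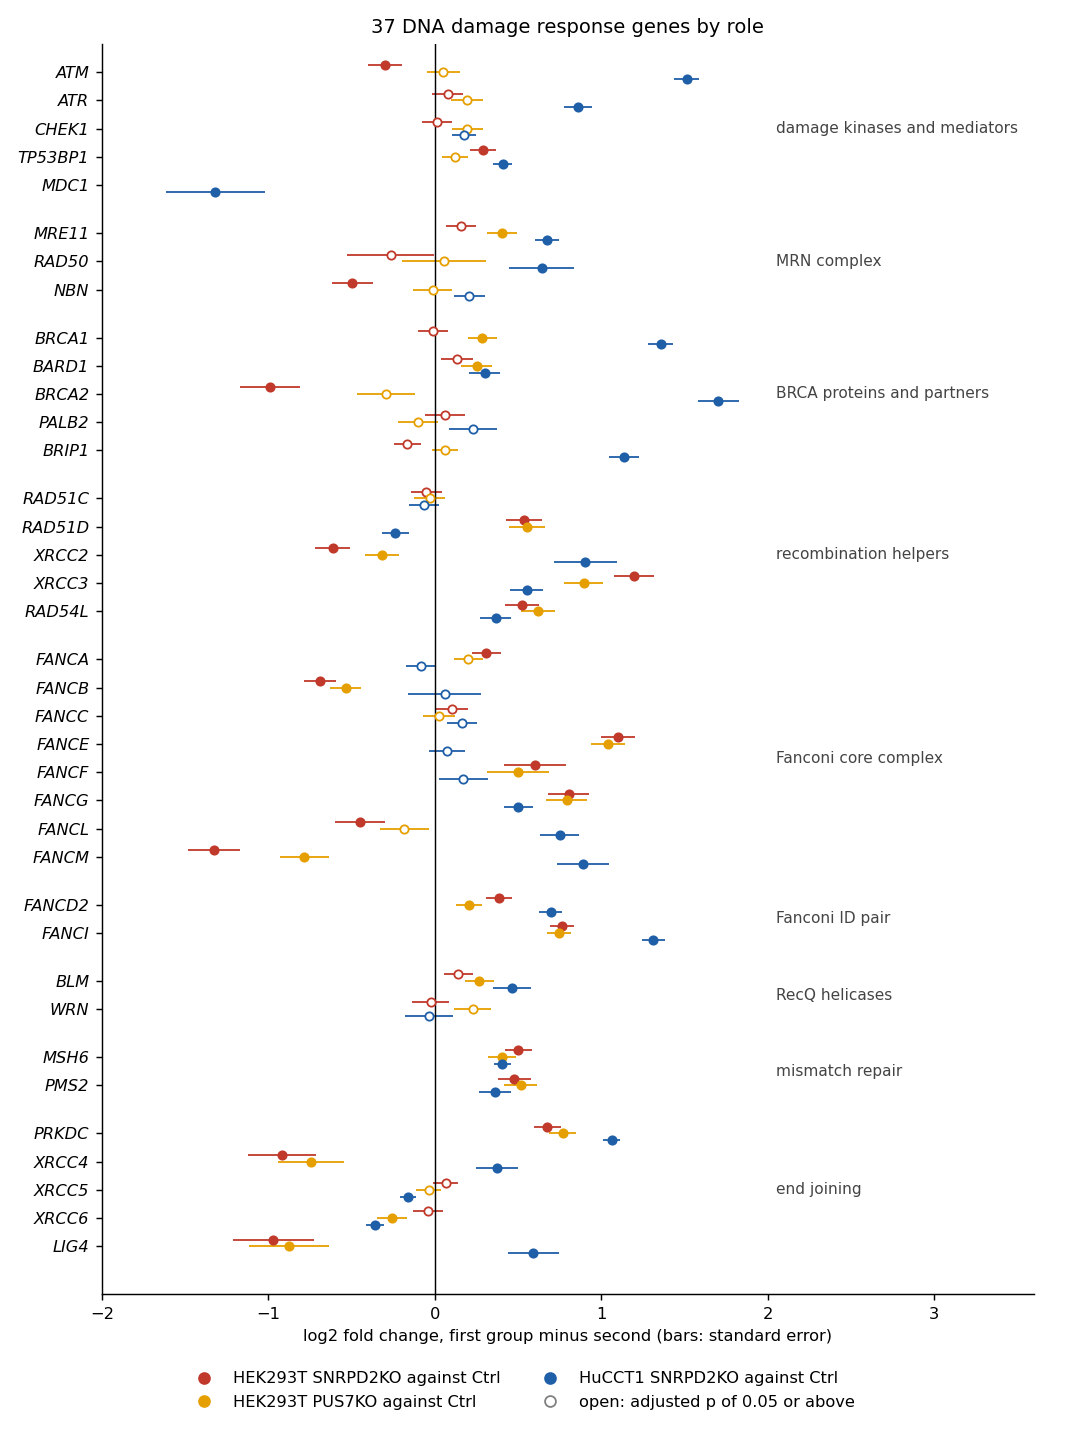
Log2 fold change of each member (x axis, first group minus second, with its standard error) in 3 comparisons, by role of the protein; filled points passed an adjusted p under 0.05 and open points did not. In HuCCT1 23 of 37 points are filled to the right of 0 and 4 to the left, while in HEK293T SNRPD2KO 13 of 36 are filled to the right and 9 to the left.

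ATM and ATR rose in HuCCT1 SNRPD2KO, while in HEK293T SNRPD2KO ATM fell and ATR did not pass the test. Rises and falls are given as log2 fold changes. ATM, the kinase that starts signalling at breaks, stood at 19.1, 19.4 and 16.7 CPM in the HuCCT1 Ctrl libraries and 51.9, 52.6 and 53.5 in SNRPD2KO. Every SNRPD2KO library held more than any Ctrl library, with a log2 fold change of 1.51 (SE 0.08, adjusted p = 6.05e-08). In HEK293T the level of ATM was 91.8, 89 and 96.5 CPM in the HEK293T Ctrl libraries, 72.7, 68.1 and 84.4 in SNRPD2KO and 93.5, 109 and 84.8 in PUS7KO. The SNRPD2KO libraries lay below every Ctrl library there, with a log2 fold change of -0.30 (SE 0.10, adjusted p = 0.0206), while PUS7KO overlapped Ctrl at 0.05 (SE 0.10, adjusted p = 0.698). That fall was not called without SNRPD2KO replicate 1, SNRPD2KO replicate 2 or Ctrl replicate 3 (-0.26 to -0.22, adjusted p 0.0777 to 0.135), nor with the GC trend removed, where the value was 0.09 (adjusted p = 0.302). ATR, the kinase of stalled forks, rose by 0.86 in HuCCT1 (adjusted p = 5.66e-06) and stood at 0.08 and 0.19 in HEK293T SNRPD2KO and PUS7KO, both short of the threshold. ATR, with the GC trend removed, was called higher in both HEK293T groups, at 0.40 (adjusted p = 0.000391) and 0.32 (adjusted p = 0.00222), and ATM in PUS7KO, at 0.20 (adjusted p = 0.0285). CHEK1, the kinase that ATR activates, passed in none of the 3 comparisons, with log2 fold changes of 0.01, 0.20 and 0.18 in HEK293T SNRPD2KO, HEK293T PUS7KO and HuCCT1 SNRPD2KO. It too was called higher in both HEK293T groups with the GC trend removed, at 0.23 (adjusted p = 0.0233) and 0.28 (adjusted p = 0.00709).

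TP53BP1 and MDC1, which gather on chromatin beside a break, moved in opposite directions in HuCCT1. TP53BP1, which favours end joining over resection, stood at 61.8, 64.2 and 60.8 CPM in the HuCCT1 Ctrl libraries and 79.6, 84.6 and 83.7 in SNRPD2KO. TP53BP1 in HEK293T stood at 83.7, 79.9 and 85.6 CPM in the HEK293T Ctrl libraries, 108, 95.9 and 101 in SNRPD2KO and 88.1, 91.2 and 92.1 in PUS7KO. It rose in the SNRPD2KO libraries of both lines, by 0.29 (SE 0.08, adjusted p = 0.00485) in HEK293T and 0.41 (SE 0.06, adjusted p = 0.000106) in HuCCT1, and in PUS7KO its change was 0.12 (SE 0.08, adjusted p = 0.206). MDC1, the scaffold on phosphorylated histone H2AX, stood at 17.2, 9.3 and 8.51 CPM in the HuCCT1 Ctrl libraries and 6.35, 4.62 and 3.04 in SNRPD2KO. All 3 SNRPD2KO libraries lay below every Ctrl library, and Ctrl replicate 1 stood apart above the other Ctrl libraries. Its log2 fold change was -1.32 (SE 0.30, adjusted p = 0.00301). In HEK293T MDC1 had 48 counts over 9 libraries, under 1 CPM in each, and its neighbour TUBB, a gene that most cells express highly, had 2 counts there against 629 over 6 libraries in HuCCT1. No statement on MDC1 in HEK293T is drawn from such counts. For such a gene the 629 TUBB counts in HuCCT1 are few as well. Whether the MDC1 counts in HuCCT1, and so its fall there, are affected was not tested.

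The MRN complex, in which MRE11 is the nuclease, RAD50 the clamp and NBN the adaptor that brings ATM, rose in 2 of its 3 genes in HuCCT1. Of all genes tested there, 28.8% rose. With the GC trend removed, 2 of the 3 rose there too, where 27.7% of all genes did. MRE11 stood at 22.4, 22.7 and 23.8 CPM in the HuCCT1 Ctrl libraries and 35.1, 38.5 and 36.4 in SNRPD2KO. MRE11 in HEK293T stood at 53.7, 55.1 and 58.1 CPM in the HEK293T Ctrl libraries, 58.8, 60.2 and 66.8 in SNRPD2KO and 67.1, 78.9 and 74.6 in PUS7KO. In all 3 comparisons the knockout libraries lay above every Ctrl library. The log2 fold change was 0.67 (SE 0.07, adjusted p = 1.62e-05) in HuCCT1, 0.40 (SE 0.09, adjusted p = 0.00119) in PUS7KO and 0.16 (SE 0.09, adjusted p = 0.15) in HEK293T SNRPD2KO. The last did not pass as counted and was called with the GC trend removed, at 0.60 (adjusted p = 5.25e-06). RAD50 rose by 0.64 (SE 0.20, adjusted p = 0.0162) in HuCCT1 at 2.46 to 4.68 CPM, a call lost without Ctrl replicate 2 or Ctrl replicate 3 (0.58 to 0.59, adjusted p 0.0512 to 0.0514), and it passed in neither HEK293T comparison. NBN fell in HEK293T SNRPD2KO at -0.50 (SE 0.12, adjusted p = 0.00266), and the sign turned with the GC trend removed, at 0.03 (adjusted p = 0.791). Its change was -0.01 in PUS7KO and 0.21 in HuCCT1, both short of the threshold.

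The BRCA group held the largest rise of any member in HuCCT1, that of BRCA2, and 4 of its 5 genes rose there. Of all genes tested in HuCCT1, 28.8% rose. With the GC trend removed, 3 of the 5 rose there, where 27.7% of all genes did. BRCA2, which acts in repair from the sister copy, stood at 6.4, 5.29 and 5.3 CPM in the HuCCT1 Ctrl libraries and 20.1, 18.7 and 16.7 in SNRPD2KO. Every SNRPD2KO library there was at least 16.7 CPM and every Ctrl library at most 6.4, 3.26 times higher by the fit, with a log2 fold change of 1.7 (SE 0.12, adjusted p = 7.03e-07). In HEK293T BRCA2 stood at 32, 22.1 and 22.8 CPM in the HEK293T Ctrl libraries, 12.1, 10.4 and 16 in SNRPD2KO and 16.8, 24.4 and 21.5 in PUS7KO. The SNRPD2KO libraries lay below all Ctrl libraries and the PUS7KO libraries overlapped them, with log2 fold changes of -0.99 (SE 0.18, adjusted p = 0.00022) and -0.29 (SE 0.17, adjusted p = 0.17). With the GC trend removed the HEK293T SNRPD2KO value was -0.40 (adjusted p = 0.0525) and that in HuCCT1 1.5 (adjusted p = 1.71e-06).

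BRCA1, the ubiquitin ligase that steers breaks to recombination, stood at 29.5, 25.8 and 28.1 CPM in the HuCCT1 Ctrl libraries and 69.8, 76.3 and 67.2 in SNRPD2KO. BRCA1 in HEK293T stood at 104, 107 and 100.2 CPM in the HEK293T Ctrl libraries, 97.9, 99.2 and 112 in SNRPD2KO and 127, 138 and 114 in PUS7KO. It rose in HuCCT1 by 1.36 (SE 0.07, adjusted p = 1.09e-07) and in PUS7KO by 0.28 (SE 0.09, adjusted p = 0.0125), and the HEK293T SNRPD2KO libraries overlapped Ctrl at -0.01 (SE 0.09, adjusted p = 0.928). BRIP1, a helicase bound to BRCA1, stood at 12.6, 11.3 and 12.5 CPM in the HuCCT1 Ctrl libraries and 25, 27.2 and 27.7 in SNRPD2KO, with no overlap and a log2 fold change of 1.14 (SE 0.09, adjusted p = 1.47e-06). In HEK293T it stood at 65.6, 72.9 and 65.5 CPM in the HEK293T Ctrl libraries, 61.5, 59.4 and 61 in SNRPD2KO and 68.8, 70.0 and 74.2 in PUS7KO, at -0.17 (SE 0.08, adjusted p = 0.0936) in SNRPD2KO and 0.06 (SE 0.08, adjusted p = 0.54) in PUS7KO. BRIP1 turned sign and was called higher in HEK293T SNRPD2KO with the GC trend removed, at 0.35 (adjusted p = 0.00399), and it was called higher in PUS7KO then too, at 0.26 (adjusted p = 0.021). BARD1, the partner of BRCA1, rose by 0.25 (SE 0.10, adjusted p = 0.0373) in PUS7KO, a call lost without PUS7KO replicate 1, Ctrl replicate 2 or Ctrl replicate 3 (0.18 to 0.29, adjusted p 0.0518 to 0.157). It rose by 0.30 (SE 0.09, adjusted p = 0.0161) in HuCCT1, a call lost without Ctrl replicate 3 (0.23, adjusted p = 0.0699) and with the GC trend removed, at 0.15 (adjusted p = 0.203). In HEK293T SNRPD2KO BARD1 stood at 0.13 (SE 0.10, adjusted p = 0.263) and was called higher with the GC trend removed, at 0.60 (adjusted p = 6.65e-05). PALB2, the bridge between BRCA1 and BRCA2, passed in no comparison, with log2 fold changes of 0.06, -0.10 and 0.23 in HEK293T SNRPD2KO, PUS7KO and HuCCT1.

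**Figure D2:**
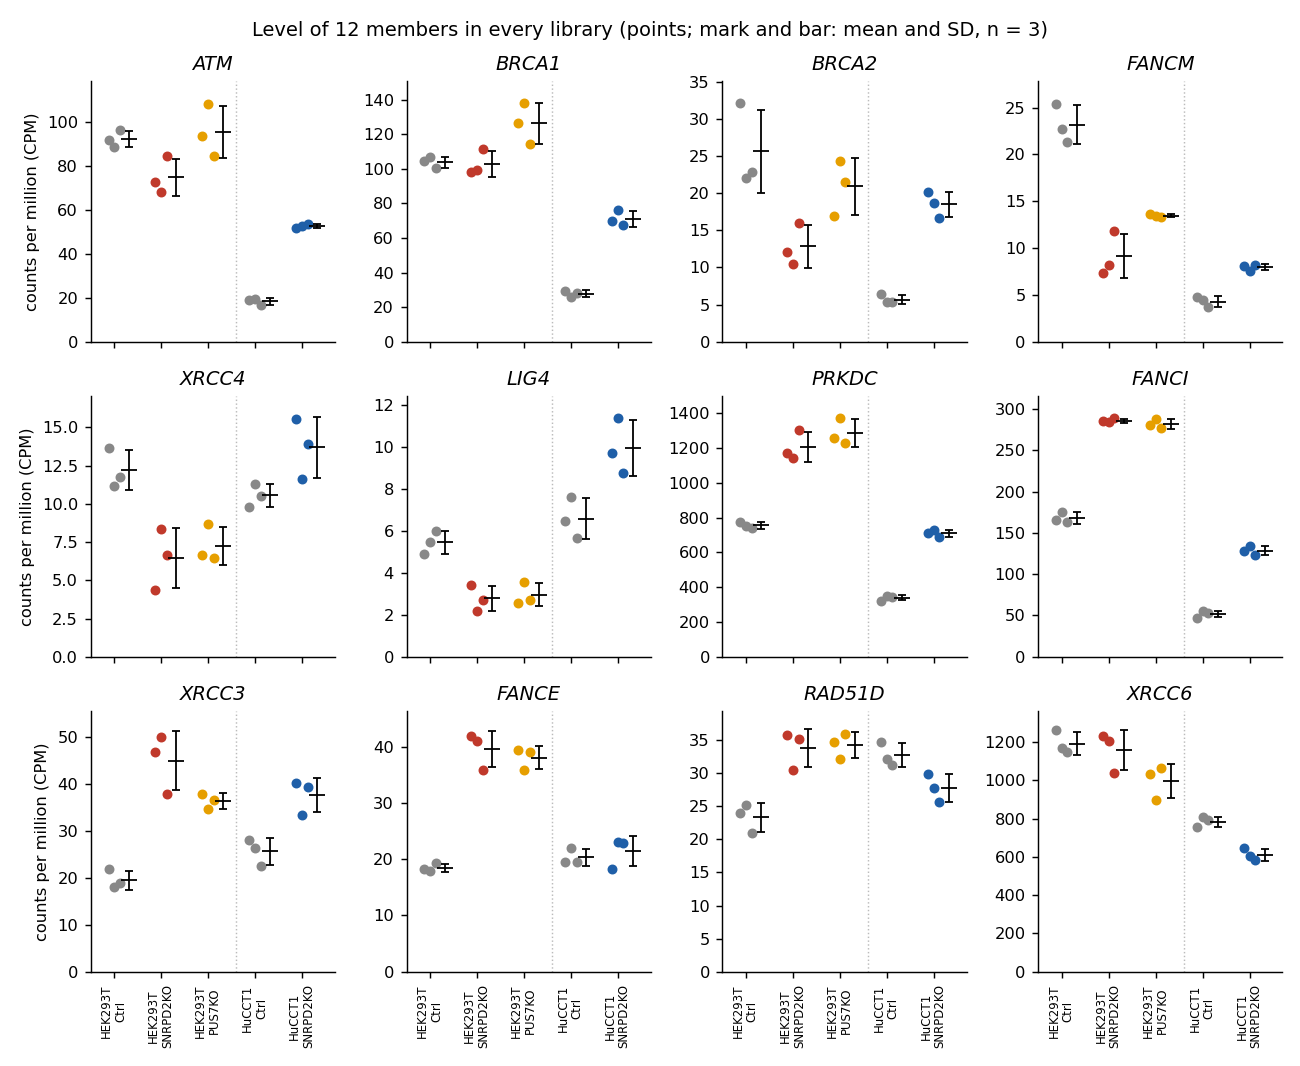
CPM of 12 members in each of the 15 libraries (points), with the mean and SD of each group of 3; each panel has its own axis from 0, and the dotted line separates the lines, which were scaled separately. BRCA2, FANCM, XRCC4 and LIG4 lie below Ctrl in the HEK293T SNRPD2KO points and above Ctrl in the HuCCT1 SNRPD2KO points, while PRKDC, FANCI and XRCC3 lie above Ctrl in both lines.

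XRCC2, XRCC3, RAD51C and RAD51D, related genes of homologous recombination, did not move as 1 group in either line. XRCC3 stood at 21.8, 18 and 18.8 CPM in the HEK293T Ctrl libraries, 46.8, 50.0 and 37.9 in SNRPD2KO and 37.9, 34.6 and 36.5 in PUS7KO. XRCC3 in HuCCT1 stood at 28.1, 26.4 and 22.5 CPM in the HuCCT1 Ctrl libraries and 40.3, 33.5 and 39.3 in SNRPD2KO. It held the largest log2 fold change of any member in HEK293T SNRPD2KO, at 1.20 (SE 0.12, adjusted p = 4.25e-07), and rose by 0.89 (SE 0.12, adjusted p = 1.23e-05) in PUS7KO and by 0.55 (SE 0.10, adjusted p = 0.00074) in HuCCT1, with no overlap with Ctrl in any of the 3. XRCC2 stood at 45.3, 43.9 and 47.7 CPM in the HEK293T Ctrl libraries, 28, 28.4 and 32.9 in SNRPD2KO and 35.5, 41.3 and 32.9 in PUS7KO. XRCC2 in HuCCT1 stood at 6.02, 6.93 and 4.1 CPM in the HuCCT1 Ctrl libraries and 12.5, 10.5 and 9.13 in SNRPD2KO. It fell, at -0.61 (SE 0.11, adjusted p = 0.000126) in HEK293T SNRPD2KO and at -0.32 (SE 0.10, adjusted p = 0.0177) in PUS7KO and rose by 0.91 (SE 0.19, adjusted p = 0.00192) in HuCCT1, and the PUS7KO call was lost without PUS7KO replicate 1, PUS7KO replicate 3 or Ctrl replicate 3 (-0.28 to -0.23, adjusted p 0.0652 to 0.111). RAD51D stood at 23.9, 25.1 and 20.9 CPM in the HEK293T Ctrl libraries, 35.8, 30.5 and 35.1 in SNRPD2KO and 34.7, 32.1 and 36 in PUS7KO. RAD51D in HuCCT1 stood at 34.7, 32.1 and 31.2 CPM in the HuCCT1 Ctrl libraries and 29.8, 27.7 and 25.7 in SNRPD2KO. It was the only member that rose in HEK293T SNRPD2KO (0.54, SE 0.11, adjusted p = 0.000495) and fell in HuCCT1 (-0.24, SE 0.08, adjusted p = 0.0289). The HuCCT1 fall was lost without SNRPD2KO replicate 2, SNRPD2KO replicate 3, Ctrl replicate 1 or Ctrl replicate 2 (-0.25 to -0.17, adjusted p 0.0609 to 0.132), and with the GC trend removed, at -0.19 (adjusted p = 0.0806).

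RAD51C, which had the highest CPM per kb of transcript of these 4 in HEK293T Ctrl, stood at 61, 59.9 and 61.8 CPM in the HEK293T Ctrl libraries, 66.2, 58.9 and 51.7 in SNRPD2KO and 60.3, 58.4 and 60.1 in PUS7KO. RAD51C in HuCCT1 stood at 23.3, 22.5 and 24.5 CPM in the HuCCT1 Ctrl libraries and 20.1, 24.2 and 22.9 in SNRPD2KO. Its groups overlapped in every comparison, with log2 fold changes of -0.05, -0.03 and -0.06 in HEK293T SNRPD2KO, PUS7KO and HuCCT1. RAD54L, a motor protein of recombination, stood at 23.4, 24.6 and 27.1 CPM in the HEK293T Ctrl libraries, 35.2, 34.7 and 37.8 in SNRPD2KO and 35.6, 37.7 and 42 in PUS7KO. RAD54L in HuCCT1 stood at 14.8, 13.2 and 13.7 CPM in the HuCCT1 Ctrl libraries and 17, 18.1 and 18.7 in SNRPD2KO. All 3 knockout groups lay above their Ctrl libraries, by 0.52 (SE 0.10, adjusted p = 0.000383), 0.62 (SE 0.10, adjusted p = 9.93e-05) and 0.37 (SE 0.09, adjusted p = 0.00591) in the same order.

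The Fanconi core complex split between risers and fallers in HEK293T as counted. Of its 8 members, 4 rose and 3 fell in SNRPD2KO, where 26.9% and 26.4% of all genes did. In PUS7KO 3 rose and 2 fell, where 25.6% and 23.8% of all genes did. With the GC trend removed, 3 rose and 1 fell in SNRPD2KO, where 25.2% and 25.9% of all genes did. The PUS7KO counts were the same then, where 24.6% and 26.0% of all genes rose and fell. FANCE, the subunit that contacts FANCD2, stood at 18.3, 17.9 and 19.3 CPM in the HEK293T Ctrl libraries, 41.9, 41 and 35.9 in SNRPD2KO and 39.4, 35.8 and 39 in PUS7KO. FANCE in HuCCT1 stood at 19.5, 22.1 and 19.5 CPM in the HuCCT1 Ctrl libraries and 18.3, 23 and 23 in SNRPD2KO. It rose in both HEK293T groups without overlap, by 1.10 (SE 0.10, adjusted p = 2.32e-07) and 1.04 (SE 0.10, adjusted p = 5.5e-07), and stood at 0.07 (SE 0.11, adjusted p = 0.599) in HuCCT1, where its groups overlapped. FANCG, a partner of FANCA in the core complex, stood at 21.4, 18.1 and 22.4 CPM in the HEK293T Ctrl libraries, 36.2, 33.2 and 38.5 in SNRPD2KO and 32.2, 33.4 and 41.9 in PUS7KO. FANCG in HuCCT1 stood at 33, 32.3 and 36.4 CPM in the HuCCT1 Ctrl libraries and 43.5, 46.8 and 53.7 in SNRPD2KO. It rose in all 3 comparisons, by 0.80 (SE 0.12, adjusted p = 3.96e-05) in HEK293T SNRPD2KO, 0.79 (SE 0.12, adjusted p = 5.7e-05) in PUS7KO and 0.50 (SE 0.09, adjusted p = 0.000506) in HuCCT1. FANCF, a gene without introns in the annotation used, stood at 3.95, 4.66 and 5.21 CPM in the HEK293T Ctrl libraries, 7.16, 6.58 and 7.23 in SNRPD2KO and 6.95, 6.57 and 6.01 in PUS7KO. FANCF in HuCCT1 stood at 8.68, 6.62 and 7.24 CPM in the HuCCT1 Ctrl libraries and 9.32, 7.99 and 8.06 in SNRPD2KO. It rose by 0.60 (SE 0.18, adjusted p = 0.0111) in HEK293T SNRPD2KO, not called without Ctrl replicate 1 (0.50, adjusted p = 0.0547), and by 0.50 (SE 0.18, adjusted p = 0.0326) in PUS7KO, not called without PUS7KO replicate 1, PUS7KO replicate 2, Ctrl replicate 1 or Ctrl replicate 2 (0.40 to 0.52, adjusted p 0.0588 to 0.126).

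FANCM, the translocase that anchors the core complex at the fork, held the largest fall of any member in HEK293T SNRPD2KO. Its level was 25.4, 22.8 and 21.3 CPM in the HEK293T Ctrl libraries, 7.38, 8.22 and 11.8 in SNRPD2KO and 13.6, 13.5 and 13.3 in PUS7KO. FANCM in HuCCT1 stood at 4.75, 4.44 and 3.66 CPM in the HuCCT1 Ctrl libraries and 8.12, 7.58 and 8.18 in SNRPD2KO. All SNRPD2KO libraries lay below all PUS7KO libraries, and those below all Ctrl libraries, while in HuCCT1 all SNRPD2KO libraries lay above Ctrl. The log2 fold changes were -1.33 (SE 0.15, adjusted p = 2.59e-06) in HEK293T SNRPD2KO, -0.78 (SE 0.15, adjusted p = 0.000367) in PUS7KO and 0.89 (SE 0.16, adjusted p = 0.000512) in HuCCT1. With the GC trend removed they were -0.84 (adjusted p = 0.000129), -0.59 (adjusted p = 0.00164) and 0.73 (adjusted p = 0.0024) in the same order. FANCB, a partner of the ligase subunit FANCL, stood at 41.1, 38.4 and 41.4 CPM in the HEK293T Ctrl libraries, 25.8, 24.4 and 24.8 in SNRPD2KO and 26.2, 29.4 and 27.9 in PUS7KO. FANCB in HuCCT1 stood at 4.31, 5.47 and 8.06 CPM in the HuCCT1 Ctrl libraries and 6.01, 5.63 and 6.85 in SNRPD2KO. It fell, at -0.69 (SE 0.09, adjusted p = 1.3e-05) and -0.54 (SE 0.09, adjusted p = 0.000169) in the 2 HEK293T groups and overlapped Ctrl in HuCCT1 at 0.06 (SE 0.22, adjusted p = 0.837). The SNRPD2KO fall in HEK293T was no longer called with the GC trend removed, at -0.12 (adjusted p = 0.314).

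The ubiquitin ligase subunit FANCL fell, at -0.45 (SE 0.15, adjusted p = 0.0188) in HEK293T SNRPD2KO and rose by 0.75 (SE 0.12, adjusted p = 0.000228) in HuCCT1, and its change in PUS7KO was -0.18 (SE 0.15, adjusted p = 0.317). The HEK293T fall was lost without SNRPD2KO replicate 1, SNRPD2KO replicate 2 or Ctrl replicate 3 (-0.42 to -0.36, adjusted p 0.0569 to 0.0877), and with the GC trend removed, at -0.08 (adjusted p = 0.677). FANCA, a subunit bound by FANCG, stood at 47.3, 43.5 and 49.7 CPM in the HEK293T Ctrl libraries, 61.1, 56.8 and 56.3 in SNRPD2KO and 54.5, 50.3 and 56.8 in PUS7KO. FANCA in HuCCT1 stood at 16.1, 15.4 and 16.3 CPM in the HuCCT1 Ctrl libraries and 14.4, 15.5 and 15.2 in SNRPD2KO. It rose by 0.31 (SE 0.09, adjusted p = 0.00713) in HEK293T SNRPD2KO and stood at 0.20 (SE 0.09, adjusted p = 0.0686) in PUS7KO and -0.09 (SE 0.09, adjusted p = 0.441) in HuCCT1, and the SNRPD2KO rise was not called with the GC trend removed, at 0.07 (adjusted p = 0.479). FANCC, a partner of FANCE and FANCF, passed in none of the 3 comparisons, at 0.10, 0.02 and 0.16 in HEK293T SNRPD2KO, PUS7KO and HuCCT1, and was called higher in HuCCT1 with the GC trend removed, at 0.23 (adjusted p = 0.0399).

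Both members of the FANCD2 and FANCI pair, the clamp that the core complex marks with ubiquitin, rose in all 3 comparisons. FANCI stood at 165, 176 and 163 CPM in the HEK293T Ctrl libraries, 285, 284 and 289 in SNRPD2KO and 280.3, 289 and 277 in PUS7KO. FANCI in HuCCT1 stood at 47.3, 54.9 and 53.1 CPM in the HuCCT1 Ctrl libraries and 128, 134 and 124 in SNRPD2KO. The 6 knockout libraries of HEK293T lay between 277 and 289 CPM, above all Ctrl libraries, and those of HuCCT1 lay between 124 and 134 CPM, where no Ctrl library exceeded 54.9. The log2 fold changes were 0.77 (SE 0.07, adjusted p = 2.99e-07), 0.75 (SE 0.07, adjusted p = 5.47e-07) and 1.31 (SE 0.07, adjusted p = 7.94e-08) in HEK293T SNRPD2KO, PUS7KO and HuCCT1. FANCD2 rose by 0.39 (SE 0.08, adjusted p = 0.000534), 0.20 (SE 0.08, adjusted p = 0.0391) and 0.70 (SE 0.07, adjusted p = 7.5e-06) in the same order. Its PUS7KO call was lost without PUS7KO replicate 1, PUS7KO replicate 3, Ctrl replicate 1, Ctrl replicate 2 or Ctrl replicate 3 (0.18 to 0.23, adjusted p 0.0523 to 0.108).

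Of the RecQ helicases, BLM, which takes apart joined recombination intermediates, stood at 57.1, 58.8 and 58.7 CPM in the HEK293T Ctrl libraries, 66.3, 62.5 and 63.8 in SNRPD2KO and 71.1, 76.7 and 62.2 in PUS7KO. BLM in HuCCT1 stood at 12, 15.3 and 15.7 CPM in the HuCCT1 Ctrl libraries and 20.9, 18.5 and 19.8 in SNRPD2KO. It rose by 0.27 (SE 0.09, adjusted p = 0.0172) in PUS7KO, a call lost without PUS7KO replicate 2 or Ctrl replicate 1 (0.21 to 0.25, adjusted p 0.0549 to 0.0627), and by 0.46 (SE 0.11, adjusted p = 0.00486) in HuCCT1, and stood at 0.14 (SE 0.09, adjusted p = 0.189) in HEK293T SNRPD2KO, where it was called higher with the GC trend removed, at 0.37 (adjusted p = 0.000509). WRN passed in none of the 3, at -0.03, 0.23 and -0.04, and was called higher in both HEK293T groups with the GC trend removed, at 0.38 (adjusted p = 0.00285) and 0.39 (adjusted p = 0.0021). Both mismatch repair members rose in all 3 comparisons. MSH6, which recognises mismatches, stood at 106, 121 and 104 CPM in the HEK293T Ctrl libraries, 151, 161 and 157 in SNRPD2KO and 138, 154 and 145 in PUS7KO. MSH6 in HuCCT1 stood at 92.7, 92.6 and 92.5 CPM in the HuCCT1 Ctrl libraries and 119, 126 and 122 in SNRPD2KO. Its groups did not overlap in any comparison with Ctrl, with log2 fold changes of 0.50 (SE 0.08, adjusted p = 8.11e-05), 0.40 (SE 0.08, adjusted p = 0.00071) and 0.41 (SE 0.05, adjusted p = 5.67e-05). PMS2, a nuclease of mismatch repair, rose by 0.48 (SE 0.10, adjusted p = 0.000728), 0.52 (SE 0.10, adjusted p = 0.000433) and 0.36 (SE 0.09, adjusted p = 0.00703), but 16 genes of the table carry PMS2 pseudogene names, so counts could be split between copies.

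In end joining, PRKDC rose in all 3 comparisons, the Ku genes fell in HuCCT1, and XRCC4 and LIG4 fell in HEK293T and rose in HuCCT1. PRKDC, the kinase DNA-PKcs, stood at 776, 749 and 737 CPM in the HEK293T Ctrl libraries, 1169.7, 1141 and 1305 in SNRPD2KO and 1255, 1374 and 1226 in PUS7KO. PRKDC in HuCCT1 stood at 322, 352 and 344 CPM in the HuCCT1 Ctrl libraries and 713, 726 and 688 in SNRPD2KO. It rose without overlap in all 3 comparisons, by 0.68 (SE 0.08, adjusted p = 2.96e-06) and 0.77 (SE 0.08, adjusted p = 1.02e-06) in HEK293T SNRPD2KO and PUS7KO and by 1.06 (SE 0.05, adjusted p = 5.29e-08) in HuCCT1. The Ku genes, whose proteins ring the broken end, were the members with the highest CPM per kb of transcript in both lines. XRCC6 (Ku70) stood at 1261, 1168 and 1147 CPM in the HEK293T Ctrl libraries, 1230.4, 1204 and 1036 in SNRPD2KO and 1035, 896 and 1062 in PUS7KO. XRCC6 in HuCCT1 stood at 755, 806 and 791 CPM in the HuCCT1 Ctrl libraries and 645, 604 and 584 in SNRPD2KO. It fell, at -0.36 (SE 0.05, adjusted p = 0.000161) in HuCCT1 and at -0.26 (SE 0.09, adjusted p = 0.0248) in PUS7KO, the latter not called without PUS7KO replicate 1, PUS7KO replicate 2, Ctrl replicate 1 or Ctrl replicate 2 (-0.27 to -0.17, adjusted p 0.0509 to 0.136), and stood at -0.04 (SE 0.09, adjusted p = 0.707) in HEK293T SNRPD2KO. XRCC6 was called lower there with the GC trend removed, at -0.20 (adjusted p = 0.0342). XRCC5 (Ku80) stood at 647, 620.3 and 618 CPM in the HEK293T Ctrl libraries, 672, 673 and 626 in SNRPD2KO and 611, 593 and 634 in PUS7KO. XRCC5 in HuCCT1 stood at 513, 502 and 509 CPM in the HuCCT1 Ctrl libraries and 448, 474 and 440.3 in SNRPD2KO. It fell, at -0.16 (SE 0.05, adjusted p = 0.0154) in HuCCT1, not called without SNRPD2KO replicate 3, Ctrl replicate 1 or Ctrl replicate 3 (-0.16 to -0.12, adjusted p 0.0525 to 0.0677), and overlapped Ctrl in both HEK293T groups, at 0.06 and -0.04.

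XRCC4 and LIG4, which together seal the ends, fell in both HEK293T groups and rose in HuCCT1. XRCC4 stood at 13.7, 11.1 and 11.8 CPM in the HEK293T Ctrl libraries, 4.38, 8.33 and 6.63 in SNRPD2KO and 6.66, 8.65 and 6.43 in PUS7KO. XRCC4 in HuCCT1 stood at 9.82, 11.3 and 10.5 CPM in the HuCCT1 Ctrl libraries and 15.6, 11.6 and 13.9 in SNRPD2KO. The groups did not overlap in any of the 3 comparisons, with log2 fold changes of -0.92 (SE 0.20, adjusted p = 0.00113), -0.74 (SE 0.20, adjusted p = 0.00532) and 0.38 (SE 0.13, adjusted p = 0.0263). The HuCCT1 rise was lost without SNRPD2KO replicate 1, SNRPD2KO replicate 3, Ctrl replicate 1 or Ctrl replicate 3 (0.27 to 0.38, adjusted p 0.0555 to 0.1), and with the GC trend removed, at 0.19 (adjusted p = 0.219). LIG4 stood at 4.91, 5.46 and 6.0 CPM in the HEK293T Ctrl libraries, 3.42, 2.19 and 2.72 in SNRPD2KO and 2.57, 3.58 and 2.7 in PUS7KO. LIG4 in HuCCT1 stood at 6.47, 7.6 and 5.67 CPM in the HuCCT1 Ctrl libraries and 9.73, 11.4 and 8.75 in SNRPD2KO. Its log2 fold changes were -0.97 (SE 0.24, adjusted p = 0.0029) in HEK293T SNRPD2KO, -0.88 (SE 0.24, adjusted p = 0.00588) in PUS7KO and 0.59 (SE 0.16, adjusted p = 0.00682) in HuCCT1, with no overlap with Ctrl in any. With the GC trend removed, the HEK293T SNRPD2KO values of XRCC4 and LIG4 were no longer called, at -0.35 (adjusted p = 0.143) and -0.36 (adjusted p = 0.214), and those of PUS7KO still were, at -0.54 (adjusted p = 0.0261) and -0.66 (adjusted p = 0.0257).

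Set against each other, the 2 HEK293T knockout groups differed in 2 of 36 members. NBN (-0.48, SE 0.12, adjusted p = 0.0345) and BRCA2 (-0.69, SE 0.18, adjusted p = 0.0381) were lower in SNRPD2KO than in PUS7KO and no member was higher, where 3.20% of all genes tested were lower and 1.57% higher (4.77% in all). At an unadjusted p under 0.05, 4 members were higher and 9 lower, where 10.4% of all genes were higher and 11.8% lower. DESeq2 called 0 higher and 5 lower, where it called 2.38% of all genes higher and 4.05% lower. The NBN call was lost without SNRPD2KO replicate 1, SNRPD2KO replicate 2, PUS7KO replicate 1, PUS7KO replicate 2 or Ctrl replicate 2 (-0.51 to -0.35, adjusted p 0.0519 to 0.194). The BRCA2 call was lost without SNRPD2KO replicate 1, SNRPD2KO replicate 2, PUS7KO replicate 2, PUS7KO replicate 3 or Ctrl replicate 2 (-0.69 to -0.56, adjusted p 0.0513 to 0.193). Without SNRPD2KO replicate 3, 2 members were higher and 7 lower. No share of all genes is given for that fit, so this count is not read as a result about the members. With the GC trend removed no member was called in either direction, where 0.264% of all genes were higher and 0.290% lower (0.554% in all), at -0.15 (adjusted p = 0.486) for NBN and -0.32 (adjusted p = 0.371) for BRCA2. FANCM differed by -0.54 (SE 0.16, adjusted p = 0.058) and ATM by -0.35 (SE 0.10, adjusted p = 0.0562), both short of the threshold. The members' median difference was -0.09, beside 0.01 for all genes tested.

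The response to SNRPD2KO differed between the lines in 23 of 37 members by the interaction test over the 12 SNRPD2KO and Ctrl libraries. It was higher in HuCCT1 for 17 members, where 19.8% of 17617 genes were, and lower for 6, where 20.9% were (40.7% in all). The largest differences were those of BRCA2 (2.65, SE 0.25, adjusted p = 1.99e-07), FANCM (2.17, SE 0.24, adjusted p = 1.63e-06), ATM (1.76, SE 0.12, adjusted p = 1.06e-08) and LIG4 (1.52, SE 0.28, adjusted p = 0.000257) on the higher side. On the lower side they were those of FANCE (-1.07, SE 0.15, adjusted p = 1.89e-05), RAD51D (-0.82, SE 0.14, adjusted p = 0.000125), XRCC3 (-0.69, SE 0.17, adjusted p = 0.00311) and FANCA (-0.44, SE 0.12, adjusted p = 0.00526). Lower in HEK293T and higher in HuCCT1 were 7 members: ATM, BRCA2, XRCC2, FANCL, FANCM, XRCC4 and LIG4. Another 9 were higher in both lines: FANCD2, FANCG, FANCI, MSH6, PMS2, PRKDC, RAD54L, TP53BP1 and XRCC3. No member was lower in both as counted. XRCC6 was called lower in both with the GC trend removed, at -0.20 (adjusted p = 0.0342) in HEK293T and -0.30 (adjusted p = 0.00107) in HuCCT1. The share of all genes with each of these joint patterns is not given, so the counts are not read as a result about the members. With the GC trend removed, XRCC2 and FANCM were still lower in HEK293T and higher in HuCCT1, and the interaction was still called for 5 of the 7, ATM, BRCA2, XRCC2, FANCL and FANCM. The interaction counts then were 10 higher and 7 lower, where 17.2% and 22.0% of all genes were (39.2% in all). SNRPD2 RNA was higher in the libraries labelled SNRPD2KO of both lines, and its own response did not pass the test of a difference (log2 fold change 0.23, SE 0.13, adjusted p = 0.16).

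**Figure D3:**
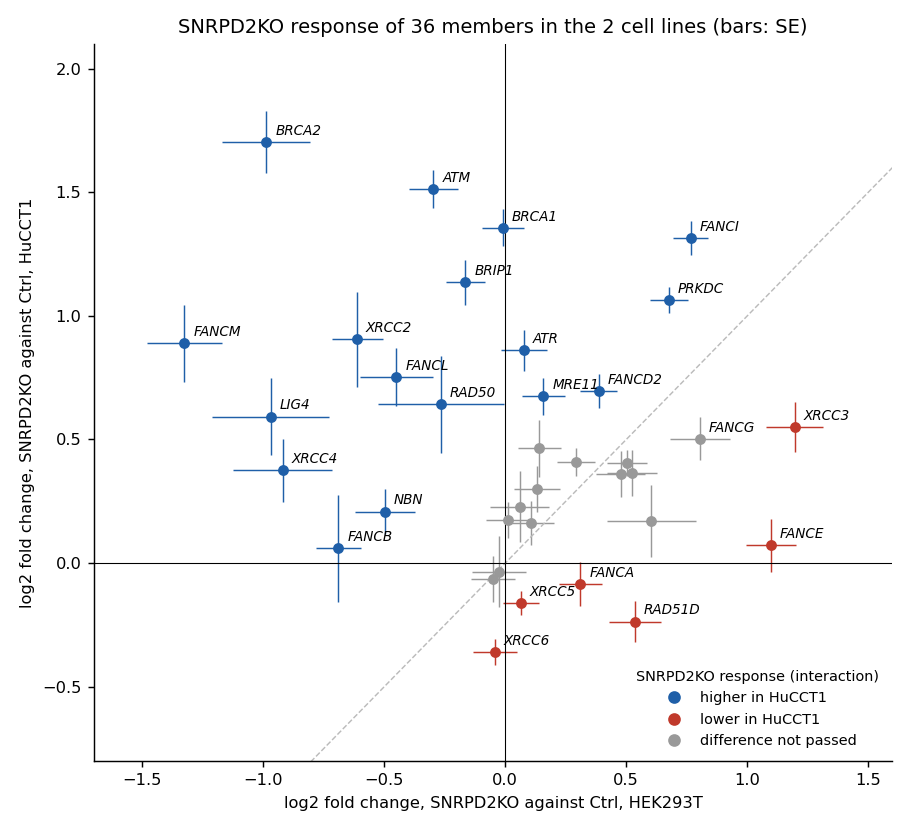
Log2 fold change of SNRPD2KO against Ctrl in HEK293T (x axis) and in HuCCT1 (y axis) for the 36 members tested in both, with standard errors; the dashed line marks equal response, and colour gives the call of the interaction test. 7 members with calls in both lines lie in the upper left, from ATM at -0.30 and 1.51 to FANCM at -1.33 and 0.89. The share of all genes with that pattern is not given.

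Of the 9 members that fell in HEK293T SNRPD2KO, 8 were among the 12 whose transcripts are poorest in G and C. The longest spliced transcripts of the members had a median GC content of 42.2%, against 48.7% for 13679 protein-coding genes, a median length of 4.74 kb against 3.45 kb and a median of 14 introns against 8. Of the 12 members between 36.2% and 39.3% GC, none rose and 8 fell in HEK293T SNRPD2KO. Of the 11 tested between 45.4% and 62.5%, 9 rose and none fell, and in between 4 rose and 1 fell of 13. All genes tested also ran from low to high with GC in that comparison. Their median log2 fold change was -0.56 in the class centred on 37% GC, -0.41 at 39%, 0.04 at 47% and 0.42 at 63%. The share of all genes called is not given by GC class, so these counts are not a trait of the members. Across members, Spearman's rho of log2 fold change with transcript GC was 0.77 in HEK293T SNRPD2KO and 0.59 in PUS7KO (36 members), and -0.39 in HuCCT1 (37 members). Over all genes with a transcript in the annotation the same rho was 0.37, 0.18 and -0.02. These are descriptions over genes that share their libraries, with no test. With the trend removed, the 12 members of lowest GC held 4 rises and 1 fall in HEK293T SNRPD2KO, and in HuCCT1 7 rises and no fall, against 9 and none as counted.

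**Figure D4:**
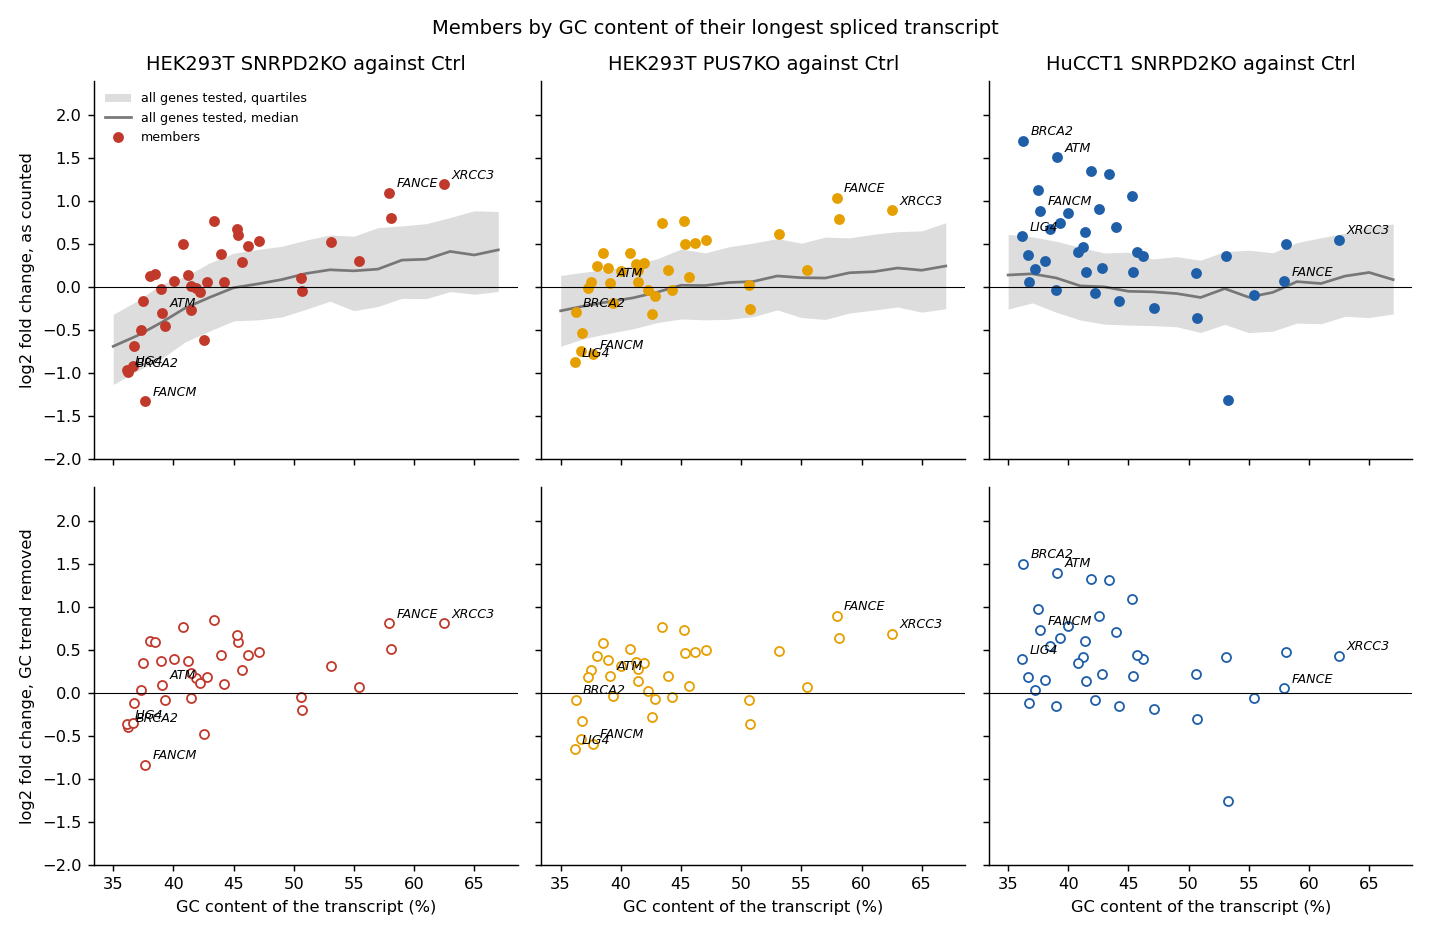
Log2 fold change of the members (points) against the GC content of their longest spliced transcript in 3 comparisons, as counted (upper row, with the median and quartiles of all genes tested in classes of 2 percentage points that hold 100 genes or more) and with each library's GC trend removed (lower row). In HEK293T SNRPD2KO the points climb from FANCM at -1.33 to XRCC3 at 1.20 and span -0.84 to 0.81 for the same genes once the trend is removed, while BRCA2 and ATM stay high in HuCCT1 in both rows.

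By their annotated spans, many members start close to a gene on the opposite strand. A protein-coding gene began within 1000 bases in the divergent direction for 14 of 37 members (37.8%), against 9.54% of 13679 protein-coding genes tested, by the coordinates in the tables. Among them PRKDC and MCM4, a subunit of the replicative helicase, start 7 bases apart, and ATM and NPAT, a regulator of histone genes, 406 bases apart; these partners were named after their values were seen. MCM4 moved with PRKDC in direction in all 3 comparisons, at 0.35 (SE 0.07, adjusted p = 0.000643) in HEK293T SNRPD2KO, 0.31 (SE 0.07, adjusted p = 0.00196) in PUS7KO and 0.23 (SE 0.06, adjusted p = 0.00638) in HuCCT1. NPAT fell in HEK293T SNRPD2KO as ATM did, at -1.0 (SE 0.13, adjusted p = 8e-06), and in HuCCT1, where ATM rose, it stood at 0.39 (SE 0.18, adjusted p = 0.0794). In PUS7KO NPAT stood at -0.28 (SE 0.12, adjusted p = 0.0725) and ATM at 0.05. The other members with such a partner were BRCA1 (NBR1), PALB2 (DCTN5), MRE11 (ANKRD49), RAD51C (TEX14), XRCC3 (ZFYVE21), FANCB (MOSPD2), FANCM (FKBP3), WRN (PURG), PMS2 (AIMP2), XRCC6 (DESI1), LIG4 (ABHD13) and TP53BP1 (MAP1A). Each pairing takes the outer end of the annotated span as the start, and whether these cells use that start was not tested. The BRCA1 span of 126 kb, whose outer end lies near NBR1, also overlaps NBR2 on the opposite strand.

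Per kb of transcript, members spanned a wide range of levels in Ctrl. XRCC6 stood at 439.9 and 289 CPM per kb in HEK293T and HuCCT1, XRCC5 at 167 and 135, and PRKDC at 55.8 and 25.1. FANCI and FANCD2 followed in HEK293T at 35.5 and 30.9 CPM per kb, while RAD50 stood at 0.379 and 0.328 in the 2 lines. The annotation release behind the counts is not given in the sources used here, and whether it sets the low RAD50 counts was not tested. In CPM, all HEK293T Ctrl libraries lay above all HuCCT1 Ctrl libraries for 26 of 37 members and below for 8, but the tables were scaled separately and differ in their protein-coding share, so this difference was not tested. Counts were low for RAD50, with 270 over 9 HEK293T libraries and 339 over 6 HuCCT1 libraries. LIG4 was low in HEK293T as well, with 84 counts over the SNRPD2KO libraries, 96 over PUS7KO and 147 over Ctrl. XRCC6 has 5 pseudogene names in the table. The kit keeps strand but the sources used here do not state how it was used in counting, and a gene on the opposite strand overlaps, among others, ATM (C11orf65), NBN (DECR1 and OSGIN2), XRCC3 (KLC1), XRCC4 (TMEM167A), FANCI (POLG), FANCL (VRK2) and TP53BP1 (TUBGCP4). STT3A overlaps CHEK1 on the same strand, and genes without a symbol overlap BRCA1 and MRE11 on theirs. The effect of such overlaps on the counts was not tested.

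The other genes of the same pathways, 75 genes of checkpoint signalling, recombination, Fanconi function, end joining and mismatch repair, also moved both ways in HEK293T. In SNRPD2KO 25 of 75 rose and 18 fell, 57.3% in all where 53.3% of all genes did, with a median log2 fold change of 0.15. In PUS7KO 25 rose and 18 fell, 57.3% in all beside 49.4% of all genes, with a median of 0.15. In HuCCT1 35 of 74 rose and 16 fell, 68.9% in all beside 57.2%, with a median of 0.27. With the GC trend removed, 29 rose and 16 fell in HEK293T SNRPD2KO, 26 and 19 in PUS7KO, and 34 and 15 in HuCCT1. Of all genes, 51.1%, 50.6% and 57.5% were called then, in the same order. HUS1, a subunit of the checkpoint clamp, fell in all 3, at -1.77 (adjusted p = 2.02e-07), -1.7 (adjusted p = 3.86e-07) and -1.27 (adjusted p = 4.72e-07) in HEK293T SNRPD2KO, PUS7KO and HuCCT1. MLH3, a mismatch repair gene, fell, at -1.61 (adjusted p = 1.66e-05) and -1.39 (adjusted p = 7.04e-05) in the 2 HEK293T groups. GEN1, a nuclease that cuts recombination junctions, fell, at -1.37 (adjusted p = 2.27e-05) and -0.90 (adjusted p = 0.00088). RMI2, of the BLM complex, rose by 1.20 (adjusted p = 4.14e-07) and 1.06 (adjusted p = 1.99e-06), and BABAM1, of the BRCA1-A complex, by 1.06 (adjusted p = 1.11e-05) and 1.09 (adjusted p = 1.08e-05).

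In HEK293T SNRPD2KO RIF1, which acts with TP53BP1, fell, at -1.10 (adjusted p = 1.09e-06) and ERCC1, a subunit of a repair nuclease, rose by 1.13 (adjusted p = 1.1e-07). In PUS7KO UBE2T, the conjugating enzyme of the Fanconi ligase, rose by 1.14 (adjusted p = 3.43e-08) and SHLD1, of the shieldin complex, fell, at -0.71 (adjusted p = 0.00824). In HuCCT1 SHLD1 fell as well, at -1.02 (adjusted p = 0.00062), with PAXX (-0.81, adjusted p = 0.000375), an end joining factor, and SWSAP1 (-0.78, adjusted p = 0.00869). ETAA1, an activator of ATR, rose there by 1.65 (adjusted p = 9.04e-05), TIMELESS, of the fork protection complex, by 1.51 (adjusted p = 5.15e-08), ABRAXAS1 by 1.46 (adjusted p = 3.16e-05) and RECQL4 by 1.19 (adjusted p = 2.29e-07). Between the HEK293T knockout groups RIF1, USP1, RAD51AP1 and POLQ, 4 of 75 where 3.20% of all genes were lower, were lower in SNRPD2KO, at -0.70, -0.58, -0.52 and -0.50, and none of the 75 was higher. None of the 75 was called with the GC trend removed. Leaving out 1 library gave 0 to 6 higher and 0 to 9 lower, with no share of all genes given for those fits. By the interaction test the largest differences were those of ETAA1 (2.62), GEN1 (2.41), RIF1 (2.23) and ABRAXAS1 (1.85), higher in HuCCT1. SWSAP1 (-1.42), UBE2T (-0.97), PAXX (-0.97) and ZSWIM7 (-0.96) were lower there. With the GC trend removed, the highest interaction values were 1.82 among the checkpoint genes of the 75, 1.96 among recombination and 1.49 among end joining. The 75 then held 22 calls higher and 20 lower, where 17.2% and 22.0% of all genes were.

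Markers of the cell cycle and of p53 were read beside the members. Of all genes tested, 26.9% rose and 26.4% fell in HEK293T SNRPD2KO, 25.6% and 23.8% in PUS7KO, and 28.8% and 28.4% in HuCCT1. Of 20 S phase genes, 16 rose in HEK293T SNRPD2KO and 17 in PUS7KO, none fell in either, and their summed level was 3613 to 4069.7 CPM in SNRPD2KO and 3523 to 3698 in PUS7KO, against 2337 to 2347 in Ctrl. In HuCCT1 13 rose and 1 fell, with sums of 2577 to 2612 CPM against 1934 to 1976. Of 15 G2 and M phase genes, 3 rose and 4 fell in HEK293T SNRPD2KO, 2 rose and 7 fell in PUS7KO, and 9 rose and 3 fell in HuCCT1. Their HuCCT1 sums were 4600.5 to 4740.1 CPM in SNRPD2KO against 3556 to 3762 in Ctrl, and the HEK293T groups overlapped. Of 11 p53 target genes tested, 9 fell and 1 rose in HEK293T SNRPD2KO, 8 fell in PUS7KO, and 6 fell and 3 rose in HuCCT1. Their sums were 262 to 268 CPM in HEK293T SNRPD2KO and 269 to 278 in PUS7KO, against 475 to 569.7 in Ctrl, and in HuCCT1 297 to 309 against 318 to 344. The part of cell cycle stage in the members' changes was not tested.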

How the data were processed

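RNA of HEK293T and HuCCT1 cells was sequenced in 15 libraries with a stranded kit that depletes ribosomal RNA, per the labels' protocols. The authors deposited a table of raw counts per gene for each line. The submitters' processing notes name cutadapt 4.2, HISAT2 2.2.1, RSEM and hg38; the annotation release and the strand setting are not given in the sources used here. Counts ran from 7944276 to 16795618 per library, and that depth limits genes of few counts. Each line was fitted alone in edgeR 4.0.16 (R 4.3.3) by the quasi-likelihood F test with TMM factors, on genes kept by filterByExpr (minimum count 10, minimum total 15), with Benjamini-Hochberg adjustment over all genes tested and a threshold of 0.05. All 9 HEK293T libraries shared a fit, and the difference between lines was an interaction term over 12 libraries. SE is the size of the log2 fold change divided by the square root of F. The fit was tested on simulated data.

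The GC alternative removed from each library a lowess trend (span 0.3) on the GC content of the longest spliced transcript (GENCODE basic annotation). Other alternatives were other scalings and filters, limma 3.58.1 voom, DESeq2 1.42.0, protein-coding genes only, a test against a 1.5-fold change, a replicate block and each library left out. Replicates of a group differed by more than counting noise (chi-square over its degrees of freedom 3.42 to 12.9), and none was merged. Members and gene lists were chosen with earlier results of these data known. Values per library were given by rule for the 6 members with the largest called change in each direction and comparison with Ctrl, the 4 with the largest interaction in each direction and the member of highest mean CPM in each role, and for further members chosen after their values were seen. Of the other pathway genes, up to 4 per direction and comparison were named, except where a result is not reported here.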

Additional observations from a re-analysis of the deposited data

Results flagged for a closer look

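The response to SNRPD2KO differed between the lines, by the interaction test over 12 libraries (edgeR quasi-likelihood, adjusted p under the threshold of 0.05), for 23 members. Values are the log2 fold change in HuCCT1 minus that in HEK293T. It was higher in HuCCT1 for BRCA2 (2.65), FANCM (2.17), ATM (1.76), LIG4 (1.52), XRCC2 (1.47), BRCA1 (1.32), BRIP1 (1.26), XRCC4 (1.25) and FANCL (1.16). Smaller differences in that direction were those of RAD50 (0.86), ATR (0.74), FANCB (0.71), NBN (0.66), FANCI (0.50), MRE11 (0.47), PRKDC (0.34) and FANCD2 (0.27). It was lower in HuCCT1 for FANCE (-1.07), RAD51D (-0.82), XRCC3 (-0.69), FANCA (-0.44), XRCC6 (-0.36) and XRCC5 (-0.27).

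The calls of RAD50, FANCD2, PRKDC and XRCC5 were lost when some library was left out, and the other 19 were kept without each library in turn. For RAD50 the interaction was lost without HEK293T SNRPD2KO replicate 1, HEK293T SNRPD2KO replicate 2, HEK293T Ctrl replicate 1, HEK293T Ctrl replicate 3, HuCCT1 SNRPD2KO replicate 1, HuCCT1 SNRPD2KO replicate 2, HuCCT1 SNRPD2KO replicate 3, HuCCT1 Ctrl replicate 2 or HuCCT1 Ctrl replicate 3 (0.73 to 0.90, adjusted p 0.0526 to 0.116). For FANCD2 it was lost without HEK293T SNRPD2KO replicate 1, HEK293T SNRPD2KO replicate 2, HEK293T SNRPD2KO replicate 3, HEK293T Ctrl replicate 2, HEK293T Ctrl replicate 3, HuCCT1 SNRPD2KO replicate 2, HuCCT1 SNRPD2KO replicate 3, HuCCT1 Ctrl replicate 1, HuCCT1 Ctrl replicate 2 or HuCCT1 Ctrl replicate 3 (0.20 to 0.28, adjusted p 0.0548 to 0.111). For PRKDC it was lost without HEK293T SNRPD2KO replicate 1 or HEK293T SNRPD2KO replicate 2 (0.28 to 0.29, adjusted p 0.0584 to 0.0599), and for XRCC5 without HuCCT1 SNRPD2KO replicate 3 or HuCCT1 Ctrl replicate 1 (-0.26 to -0.25, adjusted p 0.0557 to 0.0569). Of the 23, 14 were kept and 9 lost with the GC trend removed: MRE11, RAD50, NBN, FANCA, FANCB, FANCD2, XRCC4, XRCC6 and LIG4. Their log2 differences then were -0.14, 0.57, -0.09, -0.25, -0.09, 0.18, 0.45, -0.23 and 0.65 in that order, with edgeR adjusted p from 0.0714 to 0.784. BARD1, MSH6 and WRN, which did not pass as counted, were called then.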

How the results depend on the processing

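Other scalings, limma voom and a filter of 1 CPM in 3 libraries left each count of members within 1.5 times its value. Leaving out 1 library gave 12 to 13 members higher and 7 to 9 lower in HEK293T SNRPD2KO, 12 to 16 and 4 to 6 in PUS7KO, 21 to 24 and 2 to 4 in HuCCT1 (2 without SNRPD2KO replicate 3 or Ctrl replicate 1), and 14 to 16 and 5 to 7 in the interaction. Between the HEK293T knockout groups it gave 0 to 2 higher and 0 to 7 lower, the most of each without SNRPD2KO replicate 3. The shares of all genes called in these fits are not given, so the counts show only how the members' calls varied. Calls kept their direction without each library for 19 of 22 members in HEK293T SNRPD2KO, 15 of 21 in PUS7KO, 22 of 27 in HuCCT1 and 0 of 2 between the knockout groups. Between those groups the 2 lower members became 5 with no filter on low counts, with DESeq2 or on protein-coding genes only, 0 with the GC trend removed, and 4 with SNRPD2KO replicate 3 and PUS7KO replicate 2 both left out, an alternative chosen after seeing the data. With no filter, 2 rather than 4 members were lower in HuCCT1. Against a 1.5-fold change, 3 members were higher and 2 lower in HEK293T SNRPD2KO, 4 and 0 in PUS7KO, 7 and 1 in HuCCT1, 9 and 1 in the interaction, and 0 lower between the knockout groups. The cause was not tested.

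Removing the GC trend left 3 members lower in HEK293T SNRPD2KO and 10 higher in the interaction. It turned the sign in HEK293T SNRPD2KO for ATM (0.0947), NBN (0.0342), BRIP1 (0.351) and WRN (0.378), and in the interaction for MRE11 (-0.139), NBN (-0.0865), BARD1 (-0.535) and FANCB (-0.0941). With a replicate block as well, 3 were lower in HEK293T SNRPD2KO, 9 higher in the interaction and 0 lower between the knockout groups, and the same values were 0.0945 for ATM, 0.0345 for NBN, 0.35 for BRIP1 and 0.375 for WRN, and -0.139 for MRE11, -0.0821 for NBN, -0.54 for BARD1 and -0.0777 for FANCB. Replicate numbers gave no sign of pairing the samples. Same-numbered libraries correlated at -0.14 to 0.055 in HEK293T and -0.046 to -0.001 in HuCCT1, and 6 of 18 and 0 of 6 correlated best with their own number. With 3 libraries a group, this check cannot exclude a pairing. The replicate block alone gave 13 members higher and 9 lower in HEK293T SNRPD2KO, 14 and 6 in PUS7KO, 0 and 0 between the knockout groups, 24 and 4 in HuCCT1 and 15 and 7 in the interaction. Low counts limit RAD50 in both lines and LIG4 in HEK293T, and nothing is drawn from MDC1 in HEK293T.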
